A study of Mus musculus with 18 samples.

Results

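The actin junction genes of the red cell membrane skeleton were taken as the rows of the raw count table for dematin (Epb4.9), protein 4.1 (Epb4.1), the tropomodulins Tmod1 and Tmod3, the tropomyosins Tpm1, Tpm3 and Tpm4, and the adducins Add1, Add2 and Add3. These were 10 genes of 23365 rows, and all 10 passed the filter on low counts. They were chosen by name, with earlier results of these data known, and not every row of these families was included. The other tropomodulin and tropomyosin rows stood near 0, with at most 4.27 CPM (counts scaled to a library total of 1e+06) for Tmod2, 3.79 for Tmod4 and 0.356 for Tpm2, and Tpm2 did not pass the filter.

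RNA was sequenced from spleen cells of mice, sorted as positive for both CD71, the receptor that takes up transferrin, and TER119, a surface marker of maturing red cells. The mice carried combinations of 3 alleles of Klf1, the gene of an erythroid zinc finger transcription factor: wild type (WT), knockout (KO) and the missense allele MommeD45 (D45), which the series places in linker-2 of the protein. There were 4 D45/KO, 3 D45/D45, 5 WT/KO, 3 WT/D45 and 3 WT/WT libraries, with no treatment named in any group. D45/KO and D45/D45 mice had no wild-type allele. The series describes compound heterozygous mice, here D45/KO, as anaemic from haemolysis with an enlarged spleen. The comparison of D45/KO with WT/KO sets the D45 against the WT allele beside the same KO allele, and the comparison with WT/WT sets the compound heterozygote against the wild type. Each library had a mouse identifier of its own. Neither the making of the KO allele nor the age of the mice is given in the sources used here.

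The spectrin network under the red cell membrane is tied together at short actin filaments. Tropomodulin caps one end of each filament and adducin the other, tropomyosin lies along the filament, and dematin and protein 4.1 hold actin, spectrin and membrane proteins together. Loss of protein 4.1, adducin, tropomodulin 1 or dematin makes mouse red cells fragile. Some of these genes have family members used mainly outside the red cell lineage, such as Tpm4 and Add3. Dematin is among the known KLF1 target genes in mouse.

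Library depth ran from 9.36 to 56.3 M counts (M is 1e+06). The summed CPM of 8 erythroid markers was 21425 to 42514 in D45/KO, 19805 to 73627 in D45/D45, 11438 to 74486 in WT/KO, 13058 to 71850 in WT/D45 and 14748 to 105242 in WT/WT, so erythroid transcripts were abundant in every library. The 13 B cell markers split the libraries into 9 in which their mean log2 CPM was 3.38 to 6.62 (B-rich) and 9 in which it was -2.61 to -1.2 (B-poor). B-rich libraries were D45/KO replicates 1, 2 and 3, D45/D45 replicate 1, WT/KO replicates 1, 2 and 3, WT/D45 replicate 1 and WT/WT replicate 1. Among B-rich libraries D45/KO means ran from 3.38 to 5.38, against 6.49 to 6.62 for WT/KO, so the class was not equally B-rich in both genotypes. Among B-poor libraries the D45/KO one had the lowest erythroid sum, 42514 against 48114 to 105242. It also had the lowest share of counts from adult globin genes, 5.87% against 8.63 to 23.4%. Among B-rich libraries the erythroid sums were 21425 to 35786 in D45/KO, above the 11438 to 15515 of WT/KO. The part of maturation stage in the junction gene differences was not tested. A smaller share of erythroblasts and less erythroid RNA per cell cannot be told apart in such bulk samples.

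Most of the junction genes moved with the B cell markers before genotype was considered. The mean log2 CPM in B-rich libraries stood below that in B-poor ones by -2.24 for Epb4.9, -1.83 for Tmod1, -1.63 for Tpm1, -1.57 for Epb4.1, -1.54 for Add1 and -1.24 for Add2. Tpm4 and Add3 stood 3.41 higher in B-rich libraries, from medians of 28.9 against 2.24 CPM for Tpm4 and 39.3 against 2.95 CPM for Add3. Tmod3 and Tpm3 differed little between the classes, by 0.32 and 0.12. These differences mix genotypes and carry no test. Within WT/KO alone Tpm3 was at 106 ± 6.87 CPM in B-rich and 66.1 ± 9.96 CPM in B-poor libraries (SD). Within D45/KO it was at 47.2 ± 13 CPM in B-rich libraries and 46.7 CPM in the B-poor one.

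**Figure D1:**
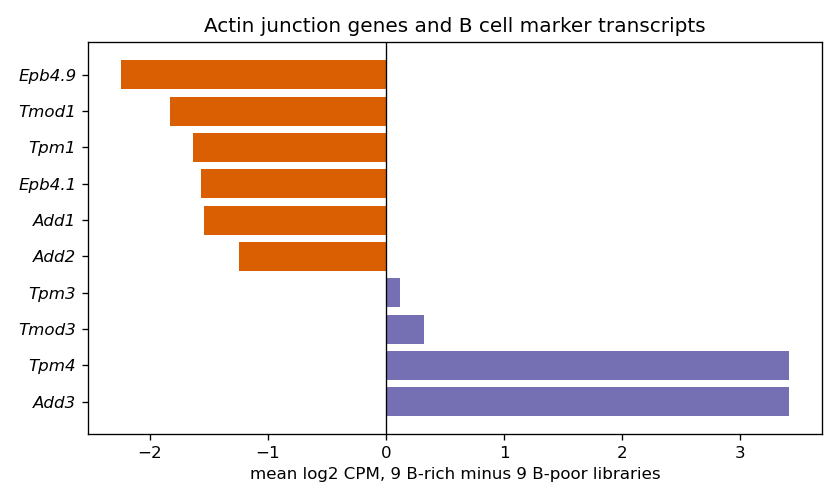
Difference in mean log2 CPM between 9 B-rich and 9 B-poor libraries for each actin junction gene (bars, 0 at the line). Epb4.9 lies lowest at -2.24, Tpm3 and Tmod3 lie near 0, and Tpm4 and Add3 both lie at 3.41.

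Of the junction genes, 8 had a promoter in RefSeq's table for GRCm38.p6, with 13 start sites. Epb4.9 and Tmod3 had no entry. The 250 bases before 3 of these starts are printed because Tmod1 and Add2 were low together in B-rich libraries while Tpm4 was high there. Capitals mark each match to CCNCNCCC, the form of CACCC box that KLF1 binds, or to its reverse complement.
Tmod1 promoter (chr4:46038972-46039221, plus strand): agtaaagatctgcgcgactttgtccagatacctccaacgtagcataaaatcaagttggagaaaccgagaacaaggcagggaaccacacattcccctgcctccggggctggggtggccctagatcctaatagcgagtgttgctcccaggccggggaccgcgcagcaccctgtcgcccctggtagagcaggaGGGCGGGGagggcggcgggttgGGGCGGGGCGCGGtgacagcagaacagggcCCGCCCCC
Add2 promoter (chr6:86028431-86028680, plus strand): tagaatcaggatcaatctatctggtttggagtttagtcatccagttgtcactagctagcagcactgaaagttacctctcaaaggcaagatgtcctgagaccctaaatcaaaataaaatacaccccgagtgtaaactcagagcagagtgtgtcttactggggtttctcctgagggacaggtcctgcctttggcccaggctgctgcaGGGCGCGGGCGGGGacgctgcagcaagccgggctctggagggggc
Tpm4 promoter (chr8:72135038-72135287, plus strand): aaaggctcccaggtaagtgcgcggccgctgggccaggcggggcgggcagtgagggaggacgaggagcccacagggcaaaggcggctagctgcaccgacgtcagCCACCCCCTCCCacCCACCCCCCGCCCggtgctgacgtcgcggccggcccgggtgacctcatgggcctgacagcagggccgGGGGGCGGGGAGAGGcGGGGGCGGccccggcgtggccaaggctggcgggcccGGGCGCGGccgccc
Overlapping matches on either strand numbered 4 for Tmod1, 2 for Add2 and 9 for Tpm4, so both patterns of expression were found beside the motif. The motif was in 10 of 13 windows, from 7 genes, and in 45.9% of 32851 windows of the same length in the table. The GATA letters AGATAA, searched on both strands, were in 1 window, of Tpm3, and in 9.99% of all windows, and in none of the 3 printed. A match describes letters only.

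Per kilobase of exon, which allows levels of different genes to be compared, Epb4.1 was the most abundant junction transcript in D45/KO (382 ± 133 CPM per kb, SD, n = 4) and in WT/WT (498 ± 461, n = 3). Dematin ranked sixth in D45/KO at 20 ± 11.9 CPM per kb, beside Tpm1 at 20.5 ± 3.7 and Tmod3 at 19.0 ± 5.44. In WT/WT it ranked second at 148 ± 69.5, beside Add1 at 146 ± 80.6. Tmod3 stood ninth in WT/WT, at 5.03 ± 2.3, and Add3 was last in both genotypes (1.98 ± 2.11 in D45/KO and 3.05 ± 3.2 in WT/WT). The neighbours named here for dematin lay within its SD.

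**Figure D2:**
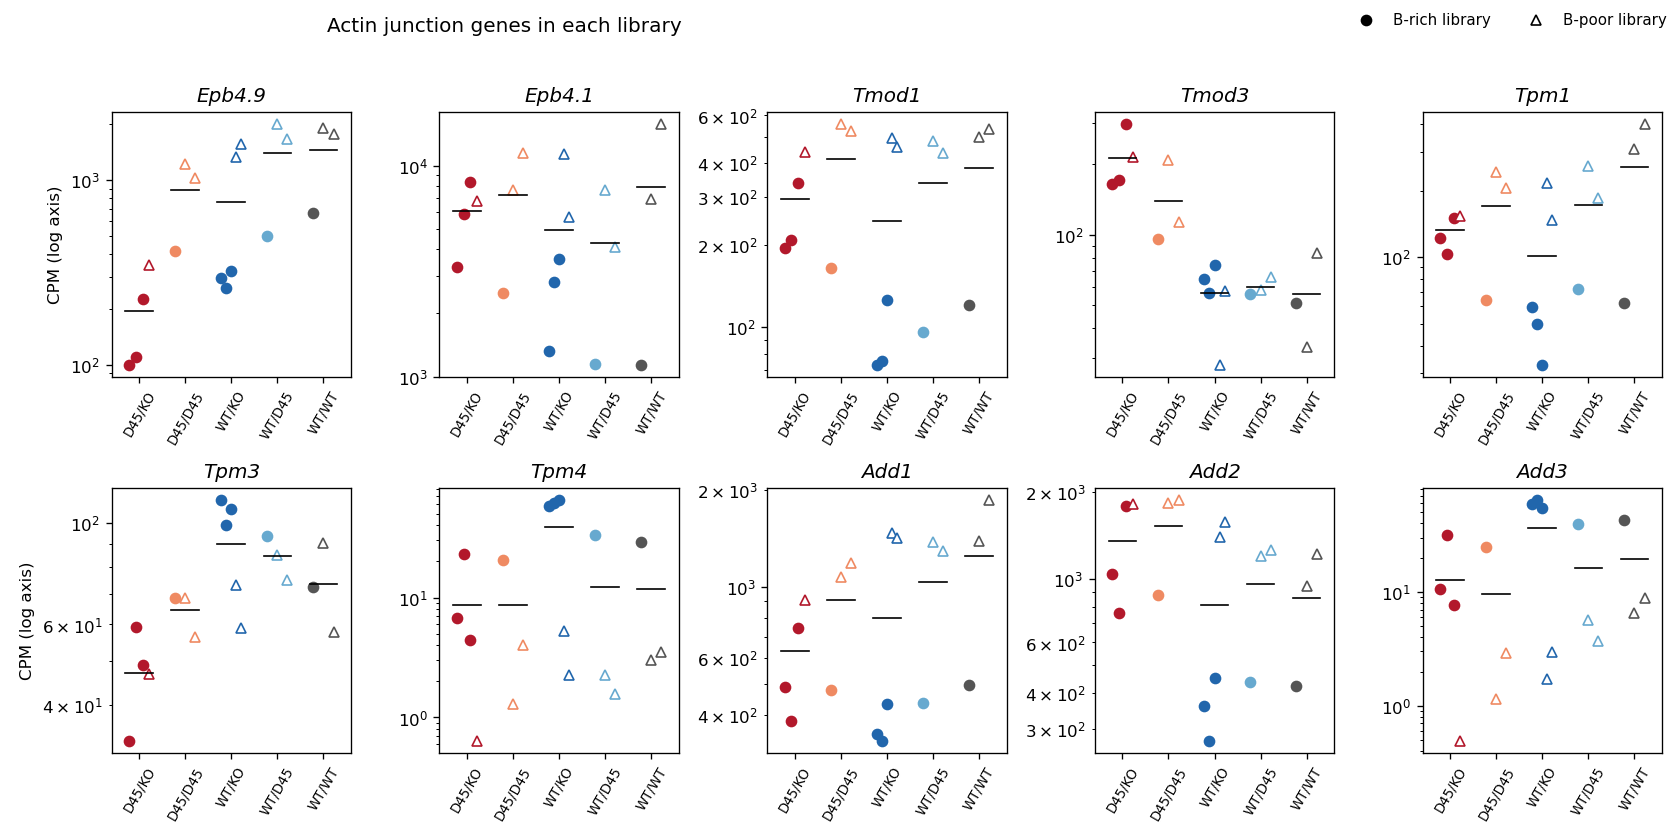
CPM of each actin junction gene (log axis) in every library, by genotype; filled circles are B-rich and open triangles B-poor libraries, and lines are genotype means. The 4 D45/KO libraries sit between 165 and 297 CPM for Tmod3, above all 5 WT/KO libraries, and between 100 and 349 CPM for Epb4.9.

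Tropomodulins cap the slow-growing end of the actin filament: Tmod1 is the form of the mature red cell, and Tmod3 is the widely expressed form, which mouse erythroblasts also use. Tmod3 was the only junction gene whose level differed by the test between genotypes. It had 165, 172, 297 and 215 CPM in the D45/KO libraries, against 64.8, 56.3, 74.6, 27.9 and 57.7 CPM in the WT/KO libraries. Every D45/KO library lay above every WT/KO library. The log2 fold change was 1.91 ± 0.33 (SE, adjusted p = 0.0202, edgeR quasi-likelihood test, 4 and 5 libraries), a 3.77-fold higher level. Against the 51.1, 33.3 and 83.8 CPM of the WT/WT libraries the groups again did not overlap, and the log2 fold change was 1.92 ± 0.39 (adjusted p = 0.032, edgeR). Over all tested genes 0.172% were called in either direction against WT/KO and 0.619% against WT/WT. Groups did not overlap for 2.71% of genes against WT/KO and for 10.2% against WT/WT. Fitting only the 2 genotypes compared ended both calls (adjusted p = 0.0992 against WT/KO and 0.0734 against WT/WT, edgeR), as did leaving out single libraries. Against WT/KO these were D45/KO replicates 3 and 4 and WT/KO replicates 2 and 4, with adjusted p up to 0.0851. Against WT/WT they were D45/KO replicates 1, 3 and 4 and WT/WT replicates 1 and 2, with adjusted p up to 0.253. Leaving out each library of the genotypes not compared in turn ended the call in 1 instance, without D45/D45 replicate 3 (adjusted p = 0.053 for Tmod3 against WT/WT).

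The summed CPM of 7 megakaryocyte markers, but not most of its members, was higher in the genotypes in which Tmod3 was higher. The sum was 360.6 to 707.6 in D45/KO libraries, 169.4 to 499.1 in D45/D45, 30.1 to 184.5 in WT/KO, 30.9 to 115.3 in WT/D45 and 20.5 to 157.1 in WT/WT. Nearly all of it was Itga2b, an integrin chain that early erythroid progenitors also carry, with a D45/KO mean of 450 ± 142 CPM and a WT/KO mean of 72.3 ± 65.4 CPM (SD), followed by Gp9, with a D45/KO mean of 36.5 ± 11.6 CPM and a WT/KO mean of 19.1 ± 16.6 CPM. Of the 7 markers 5 were tested and none was called. Against WT/KO 2 were above 0 (Itga2b 2.64 ± 0.79, adjusted p = 0.384, and Gp9 0.93 ± 0.48, adjusted p = 0.927, edgeR) and 3 below, with a median of -1.37, and against WT/WT 2 were above and 3 below, with a median of -0.91. The platelet markers Pf4 (0.132 ± 0.19), Ppbp (0.251 ± 0.133) and Gp1bb (0.0668 ± 0.0839 CPM) were near 0 in D45/KO, and Treml1 was 0 there. The part of megakaryocyte RNA in the Tmod3 difference was not tested.

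Tmod3 lay between these extremes in D45/D45, which carries the missense allele only. It had 96.5, 209 and 114 CPM in D45/D45, 56.2, 58.1 and 66.3 CPM in WT/D45, and the WT/WT values above. All D45/D45 libraries lay above all WT/WT libraries, as for 11% of all genes in that comparison, but the fold change did not pass the test (log2 1.32 ± 0.4, adjusted p = 0.819, edgeR). The D45/KO libraries overlapped with D45/D45 (log2 0.6 ± 0.37, adjusted p = 1, edgeR). By group mean, Tmod3 ran from D45/KO (212 ± 60.6 CPM, SD) through D45/D45 (140 ± 60.8), WT/D45 (60.2 ± 5.37) and WT/KO (56.3 ± 17.5) to WT/WT (56.1 ± 25.6). The first of these means exceeded the second by more than either SD, and the last 3 lay within each other's SD.

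Tmod1, the main form per length in every genotype, did not separate the genotypes. It had 196, 210, 340 and 440 CPM in D45/KO, against 72.8, 75, 126, 495 and 461 CPM in WT/KO, where the first 3 libraries of each were the B-rich ones. WT/WT had 121, 498 and 535 CPM, again with the B-rich library lowest. The log2 fold change was 0.27 ± 0.66 against WT/KO (adjusted p = 0.963) and -0.37 ± 0.75 against WT/WT (adjusted p = 0.999, edgeR). The balance of the tropomodulins within a library needs no scaling between libraries. The log2 ratio of Tmod3 to Tmod1 counts was -0.25, -0.29, -0.2 and -1.03 in D45/KO, against -0.17, -0.41, -0.76, -4.15 and -3 in WT/KO. Tmod3 has 11151 exon bases and Tmod1 3946, so equal counts are not equal levels. In B-rich libraries the log2 ratio overlapped between D45/KO (-0.29 to -0.2) and WT/KO (-0.76 to -0.17). In the B-poor class it was higher in the D45/KO library than in both WT/KO libraries. It was -0.77, -1.41 and -2.21 in D45/D45, -0.77, -3.06 and -2.72 in WT/D45 and -1.24, -3.9 and -2.67 in WT/WT. B-rich libraries were the higher ones within each genotype, and among B-poor libraries D45/KO and D45/D45 lay above those with a wild-type allele. D45/KO and WT/KO means differed by 1.26 (exact permutation p = 0.302, two-sided, adjusted p = 0.603 over 12 tests). D45/KO and WT/WT means differed by 2.16, with no overlap (exact p = 0.0571, the smallest that 4 against 3 libraries allow, adjusted p = 0.457).

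Dematin, an actin-bundling protein that also joins the skeleton to the membrane, had the lowest levels in D45/KO. Epb4.9 was at 100, 110, 226 and 349 CPM in D45/KO, against 296, 261, 324, 1336 and 1571 CPM in WT/KO. D45/D45 had 414, 1223 and 1020 CPM, WT/D45 had 496, 2009 and 1672 CPM, and WT/WT had 665, 1906 and 1773 CPM. In every genotype the B-poor libraries were the highest, and within each B class every D45/KO library lay below every library of the 4 other genotypes. The same held for Tpm3 and for 0.679% of all genes, with 1 D45/KO library in the B-poor class. The B-poor D45/KO library (349 CPM) overlapped only with the B-rich WT/KO libraries.

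In the edgeR fit of genotype alone the dematin difference did not pass the test. Epb4.9 had a log2 fold change of -2.88 ± 0.76 against WT/WT (adjusted p = 0.134) and -1.95 ± 0.68 against WT/KO (adjusted p = 0.591, edgeR). Against D45/D45 it was -2.17 ± 0.74 (adjusted p = 1, edgeR), with groups that did not overlap, as was so for 4.77% of all genes. With B class as a 2-level term in the fit, Epb4.9 was lower in D45/KO by -1.37 ± 0.28 against WT/KO (adjusted p = 0.0078, edgeR) and by -2.11 ± 0.32 against WT/WT (adjusted p = 7.5e-04, edgeR). With the B marker mean as a covariate it was lower by -1.78 ± 0.24 against WT/KO (adjusted p = 3.2e-04), -2.48 ± 0.26 against WT/WT (adjusted p = 1.3e-05) and -1.67 ± 0.26 against D45/D45 (adjusted p = 0.00537, edgeR). The 2-level term gave -1.41 ± 0.31 against D45/D45, which was not called (adjusted p = 0.248, edgeR). The share of all genes called in that covariate fit was 2.95% against WT/KO, 4.16% against WT/WT and 0.134% against D45/D45. The Tmod3 fold changes stayed at 1.91 and 1.92 with the 2-level term. Summed B cell marker CPM was 3.4 to 802.8 in D45/KO, 2.5 to 854.1 in D45/D45, 5.79 to 2037 in WT/KO and 10.8 to 1154 in WT/WT, with all 13 markers lower on average in D45/KO than in WT/KO and none called.

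Ratios within a library showed dematin against the other junction genes without any scaling. They were chosen after the values were seen and carry no test. The ratio of Epb4.9 to Add1 counts was 0.205, 0.289, 0.304 and 0.384 across the D45/KO libraries and 0.748 to 1.46 in the 14 other libraries. Epb4.9 over Epb4.1 was 0.0188 to 0.0515 in D45/KO, against 0.0886 to 0.586 elsewhere, and Epb4.9 over Tmod1 was 0.513 to 0.792 in D45/KO, against 1.94 to 5.51 elsewhere. Over Tpm1 the ratio was 0.821 to 2.27 in D45/KO, against 4.44 to 10.7 elsewhere, and over Add2 it was 0.0963 to 0.191 in D45/KO, against 0.473 to 2.02 elsewhere. D45/KO stood apart from all other libraries in each of the 5 ratios, including both B classes. Of 8058 genes set against the same 5 denominators, 0.211% separated D45/KO downwards in all 5. For single denominators that share was 0.335% with Add1, 0.335% with Epb4.1, 0.683% with Tmod1, 0.844% with Tpm1 and 2.28% with Add2.

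**Figure D3:**
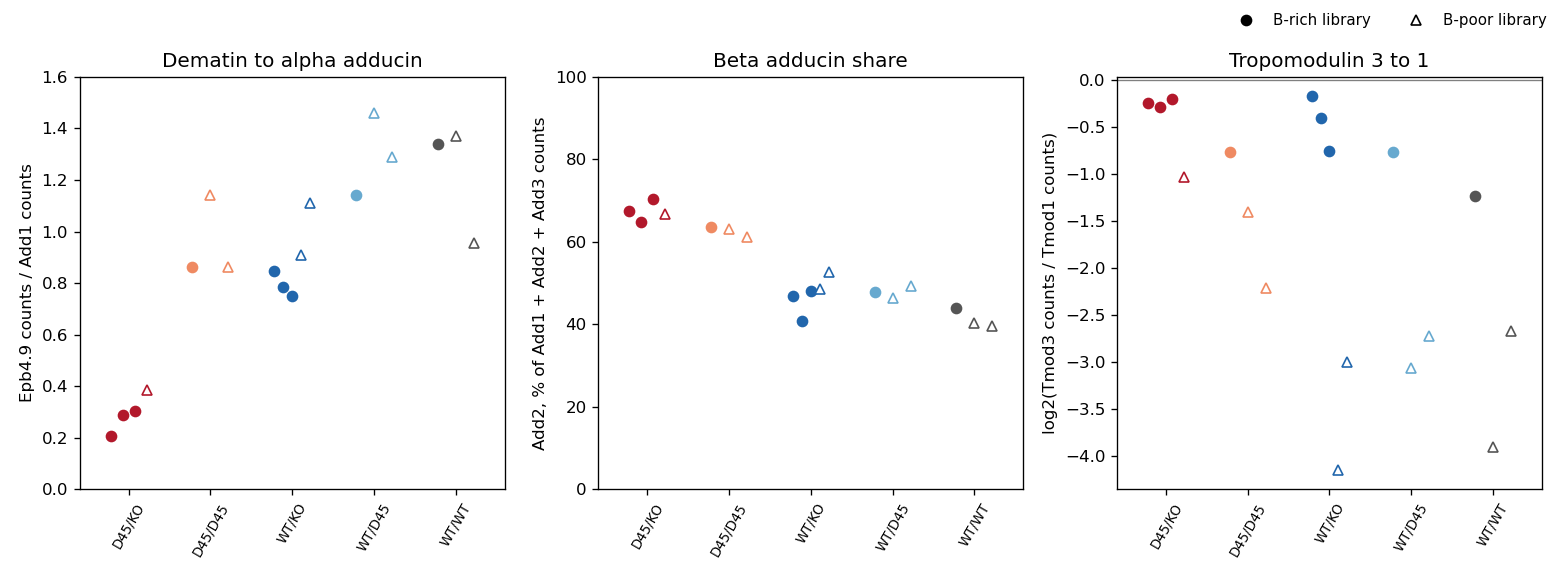
Epb4.9 to Add1 count ratio, Add2 as a percent of adducin counts, and the log2 ratio of Tmod3 to Tmod1 counts in each library, by genotype; filled circles are B-rich and open triangles B-poor libraries. The D45/KO dematin ratios (0.205 to 0.384) and the adducin shares of D45/KO and D45/D45 (61.2 to 70.5%) stand apart from the remaining libraries, and the tropomodulin ratio is higher in the B-rich than in the B-poor libraries of each genotype.

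Protein 4.1, which strengthens the binding of spectrin to actin, varied mainly between libraries of one genotype. Epb4.1 had 3307, 5881, 8389 and 6767 CPM in D45/KO, against 1328, 2791, 3594, 11300 and 5680 CPM in WT/KO. WT/WT spanned 1135 to 15725 CPM, which contains all D45/KO values. Its log2 fold change was 0.3 ± 0.87 against WT/KO (adjusted p = 0.971) and -0.38 ± 0.99 against WT/WT (adjusted p = 0.999, edgeR). Among the B-rich libraries D45/KO spanned 3307 to 8389 CPM, against 1328 to 3594 CPM in WT/KO, which overlapped. The paralogs of protein 4.1 gave 5 tested genes of 6 and none was called in either comparison.

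Adducins cap the fast-growing end of the filament as dimers, in red cells mostly of alpha (Add1) and beta (Add2) chains. Add1 had 490, 382, 744 and 907 CPM in D45/KO, against 349, 332, 433, 1473 and 1420 CPM in WT/KO. Add2 had 1043, 759, 1799 and 1827 CPM in D45/KO, against 360, 272, 451, 1394 and 1578 CPM in WT/KO. Within the B-rich class every D45/KO library exceeded every WT/KO library in Add2, and the B-poor D45/KO library did so too. Of all genes, 6.71% were higher in D45/KO than in WT/KO within both classes in this way, Tmod3 among them. Neither gene passed the test in the fit of genotype alone (Add2 log2 0.74 ± 0.57, adjusted p = 0.927; Add1 -0.34 ± 0.58, adjusted p = 0.939, edgeR, D45/KO against WT/KO). With the 2-level B term Add2 was higher by 1.29 ± 0.3 against WT/KO (adjusted p = 0.0165) and 1.39 ± 0.36 against WT/WT (adjusted p = 0.0345, edgeR). Add1 was at 0.19 ± 0.26 against WT/KO in that fit (adjusted p = 0.726, edgeR).

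The share of adducin counts from Add2 followed the presence of a wild-type Klf1 allele. Add2 gave 64.7 to 70.5% in D45/KO and 61.2 to 63.5% in D45/D45, against 40.7 to 52.6% in WT/KO, 46.4 to 49.2% in WT/D45 and 39.5 to 44% in WT/WT. The 7 libraries without a wild-type allele did not overlap with the 11 that had one, in either B class. This split was seen after the fact and has no test. Of 8058 genes, 2.12% had a ratio to Add1 that separated the same libraries upwards.

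Add3 (gamma adducin), the widely expressed adducin, was a small part of adducin counts and tracked the B cell markers. It had 10.7, 31.8, 7.65 and 0.49 CPM in D45/KO, against 59.4, 63.8, 54.5, 1.71 and 2.95 CPM in WT/KO. B-rich libraries were the high ones in both genotypes. The log2 fold change was -1.52 ± 1.22 (adjusted p = 0.927, edgeR), and -1.77 ± 0.47 with the 2-level B term (adjusted p = 0.0311, edgeR). That term does not equalise the B marker level of B-rich D45/KO and WT/KO libraries. With the B marker mean as a covariate the difference was -0.95 ± 0.35 and was not called (adjusted p = 0.196, edgeR).

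Tropomyosins lie along the filament and steady it, and Tpm1 and Tpm3 products are those of the red cell junction. Tpm1 had 122, 104, 151 and 154 CPM in D45/KO, against 59.8, 49.9, 32.7, 216 and 147 CPM in WT/KO, and 62.2, 308 and 399 CPM in WT/WT. D45/KO values were thus close together, while those of WT/KO and WT/WT split by B class. Tpm1 did not pass the test in either comparison (0.39 ± 0.59 against WT/KO, adjusted p = 0.929, and -0.95 ± 0.67 against WT/WT, adjusted p = 0.809, edgeR).

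Tpm3 was at 33.4, 59.3, 48.9 and 46.7 CPM in D45/KO, against 112, 98.8, 107, 73.1 and 59.1 CPM in WT/KO. One WT/KO library lay just below the highest D45/KO library. The log2 fold change was -0.94 ± 0.23 (unadjusted p = 9.3e-04, adjusted p = 0.205, edgeR), and -0.95 ± 0.2 with the 2-level B term (adjusted p = 0.00993, edgeR). That term leaves the same difference in B level between the genotypes as for Add3. Against WT/WT, with 72.4, 90.4 and 57.9 CPM, the log2 fold change was -0.65 ± 0.26 (adjusted p = 0.44, edgeR). Tpm3 has processed copies elsewhere in the genome that could share its reads, so its level is uncertain. It made up 24.9 ± 4.86% of tropomyosin counts in D45/KO, against 40.3 ± 12.7% in WT/KO (SD), a difference of -15.4 points (exact permutation p = 0.0794, two-sided, adjusted p = 0.457 over 12 tests). The share also followed B class. In B-rich libraries it was 25.4 ± 5.8% in D45/KO, against 49.4 ± 2.8% in WT/KO. In B-poor libraries it was 23.2% in the D45/KO library, against 24.9 to 28.4% in WT/KO. Tpm4, high in B-rich libraries, is part of the same total.

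Tpm4, a tropomyosin of non-muscle cells and platelets, was at 6.8, 23, 4.44 and 0.635 CPM in D45/KO, against 58.4, 61.3, 64.7, 5.29 and 2.24 CPM in WT/KO. It was near 0 in B-poor libraries of both genotypes. The log2 fold change was -2.13 ± 1.25 (adjusted p = 0.927, edgeR), and -2.39 ± 0.46 with the 2-level B term (adjusted p = 0.00581, edgeR), with the same difference in B level between the genotypes as for Add3. With the B marker covariate it was -1.72 ± 0.37 (adjusted p = 0.0132, edgeR).

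Across the 10 genes, then, 1 was called in D45/KO against WT/KO (0.172% of all genes), and 1 against WT/WT (0.619%). Of their fold changes against WT/KO 5 were above 0 and 5 below, where 40.8% of all genes were above (median -0.04, all genes -0.15). Against WT/WT 2 were above 0 and 8 below, where 54.2% of all genes were above (median -0.53, all genes 0.07). With the 2-level B term 8 were called against WT/KO, where 5.8% of all genes were called, and 4 against WT/WT, where 4.1% were. The 8 were Tmod3, Tmod1, Tpm1 (1.06 ± 0.29, adjusted p = 0.04, edgeR) and Add2 on the higher side, with Tmod1 at 1.04 ± 0.27 (adjusted p = 0.0295, edgeR), and Epb4.9, Tpm3, Tpm4 and Add3 on the lower side. With the B marker covariate 5 were called against WT/KO, with 2.95% of all genes. Not called there were Tmod1 (0.58 ± 0.23, adjusted p = 0.236, edgeR), Tpm1 (0.65 ± 0.26, adjusted p = 0.248, edgeR) and Add3. In B-poor libraries alone, where D45/KO has 1 library assumed to vary like the other groups, Tmod1 and Tpm1 turned to -0.08 and -0.2. The 4 called against WT/WT were Tmod3, Add2, Epb4.9 and Add3 (-2.58 ± 0.57, adjusted p = 0.0135, edgeR).

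The number of junction genes called changed with the setting, and is given beside the share of all genes called. Against WT/KO, DESeq2 called Tmod3, Epb4.9 (-1.96) and Tpm3 (-1.09), where it called 1.39% of all genes. Limma-voom with quality weights called 5 junction genes there and 17.9% of all genes. Within the B-rich libraries alone 6 were called (Tmod1, Tmod3, Tpm1, Tpm3, Tpm4 and Add2), with 7.55% of all genes, and within the B-poor libraries alone, with 1 D45/KO library, Tmod3 (2.37) and Epb4.9 (-2.01), with 0.335%. A fit to only D45/KO and WT/KO called no junction gene and 0.0497% of all genes, and a block for replicate number called Tmod3 and Tpm3 and 0.955%.

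Against WT/WT, Epb4.9 joined Tmod3 under several settings. Both were called with RLE size factors (0.94% of all genes), DESeq2 (3.04%), quality weights (5.35%), a 2-level term for mouse identifiers under 200 (1.03%), the replicate block (1.56%) and, with 1 D45/KO library, the B-poor libraries alone (2.35%). Neither was called in the B-rich libraries alone, with 1 WT/WT library (0.0684%), or in a fit to those 2 genotypes only (0.511%). Against D45/D45, Epb4.9 was called with quality weights (-2.44, 5.24% of all genes) and the replicate block (-2.62, 0.0895%). In WT/KO against WT/WT, quality weights called Epb4.9, Tmod1, Tpm1 and Add1 lower, with 8.65% of all genes.

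**Figure D4:**
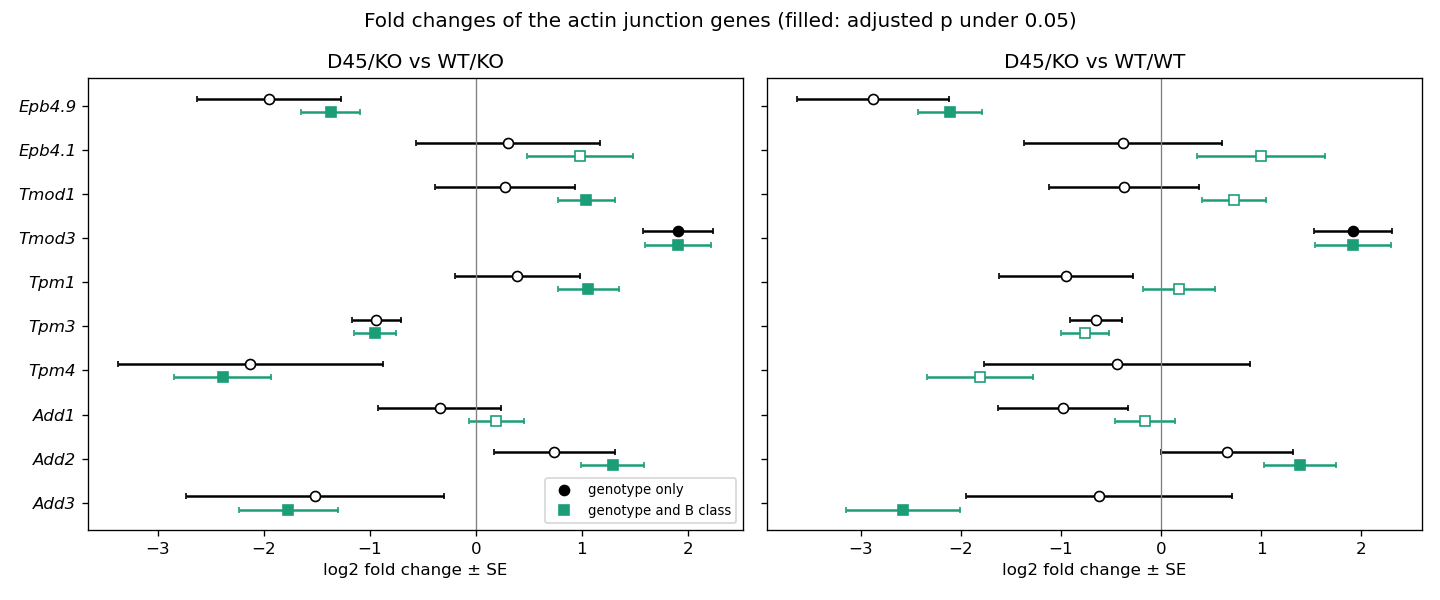
Log2 fold change ± SE of each actin junction gene in D45/KO against WT/KO (left) and against WT/WT (right), from the fit with genotype only (black circles) and with the 2-level B term added (green squares); filled symbols have an adjusted p under 0.05. Tmod3 is the only filled black symbol in both panels, at 1.91 and 1.92, and Epb4.9 is filled only with the B term.

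No junction gene was called in the other comparisons by the edgeR fit of genotype alone. In D45/KO against D45/D45 0.00746% of all genes were called by edgeR, 303 genes had an unadjusted p under 0.05, and Epb4.9 was the junction gene with the smallest p (0.00953). D45/D45 against WT/WT and WT/D45 against WT/WT called 0% of genes, with 545 and 194 genes under an unadjusted p of 0.05. In WT/D45 against WT/WT the junction fold changes ran from -0.89 ± 1.08 for Epb4.1 to 0.2 ± 0.28 for Tpm3, and Tmod3 was at 0.1 ± 0.39. WT/KO against WT/WT called 0% as well, with 573 genes under an unadjusted p of 0.05. Among these was Tpm1 at -1.35 ± 0.63 (adjusted p = 0.818, edgeR). The authors' deposited table for that pair gives a log2 fold change of 1.57 for Tpm1 and 1.25 for Epb4.9, with WT/WT over WT/KO, and adjusted p-values of 0.853 for both. Whether D45 acted differently beside KO than beside WT was tested as an interaction, which called 0.00746% of genes and no junction gene. Tmod3 (1.81 ± 0.51) and Tpm3 (-1.14 ± 0.36) had the smallest unadjusted p of the junction genes there, with adjusted p = 1 (edgeR).

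The genes around the junction were read from lists of partners and of actin turnover genes. These lists were chosen with earlier results of these data known. Of 10 partners (spectrins, ankyrin, band 3, protein 4.2, actins, glycophorin C, p55 and the glucose transporter) none was called against WT/KO or WT/WT, with medians of 0.12 and -0.11. Mpp1, which encodes p55, a scaffold that binds protein 4.1 and glycophorin C, had the smallest p, at -2.08 ± 0.83 against WT/WT (adjusted p = 0.436, edgeR). Of 17 genes of actin assembly and turnover none was called either, with medians of -0.37 and 0.17. Capza1, a chain of the capping protein that closes the fast-growing end in other cells, was at 0.59 ± 0.23 and Rac1, a small GTPase, at -0.75 ± 0.31 against WT/WT (adjusted p = 0.407 and 0.454, edgeR).

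The junction genes did not vary as one set within the B classes. B marker level was not held within the B-rich class, where its mean log2 CPM ran from 3.38 to 6.62. Across the 9 B-rich libraries Tmod1 and Add2 had a Spearman correlation of 0.92, and across the 9 B-poor libraries one of 0.15. Epb4.9 and Tmod3 ran opposite in both, at -0.77 and -0.58, and so did Add2 and Add3, at -0.95 and -0.8. Epb4.9 and Add2 were at -0.43 and -0.92. Other pairs rose together in both classes, such as Epb4.1 and Tmod1 (0.73 and 0.82) and Tmod1 and Tpm1 (0.73 and 0.67). The tested genes with levels most like Epb4.9 in both classes were Ehbp1l1 (0.97 and 0.95), Cacna1g (0.93 and 0.93) and Pabpc4 (0.97 and 0.93), and those most like Tmod3 were Dzip1 (0.97 and 0.83), Clstn1 (0.83 and 0.85) and Zfp426 (0.92 and 0.83). These values are descriptions over libraries that share genotype, depth and cell make-up, and carry no test.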

How the data were processed

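Per the labels, CD71 and TER119 positive spleen cells were sorted, RNA was taken with Trizol and libraries were made with the Swift Rapid RNA kit. HISAT2, featureCounts, limma and mm9 are named in the submitters' processing notes, without versions, while use of strand was not given in these sources. The authors deposited raw whole-number counts per gene for 18 libraries in 23365 rows. A second deposited table of 9918 genes holds the authors' CPM, their log2 fold changes (WT/WT above, WT/KO below the line) and their p-values, and its values are used only where the text names it. Even numbers made up 99.9% of counts from 1 to 20 in D45/KO replicate 2 and 99.8% in D45/D45 replicate 1. In the remaining libraries they made up 59.3 to 77.3%. How mates of a pair were counted was not given, so a count may not be a separate fragment.

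Genotypes came from the labels. Differential expression used edgeR 4.0.16 under R 4.3.3 (TMM, filterByExpr by genotype, 13405 genes kept, quasi-likelihood fit of genotype alone over all libraries, 7 comparisons, Benjamini-Hochberg adjustment over all genes kept, called under 0.05). SE is the absolute log2 fold change over the square root of F. CPM used TMM-adjusted totals (TMM factors 0.366 to 1.93), while log2 CPM added a prior of 2 counts. The fit was tested on simulated data that had no B-rich or B-poor classes, so that check does not cover them. Ratios were compared with exact permutation tests (scipy 1.17.1). Alternatives used DESeq2 1.42.0, limma 3.58.1, B cell marker terms, other scaling, no filter, fewer libraries and a replicate block. Fits to B-rich or B-poor libraries alone were added after the data were seen. The libraries were split at the largest gap of the B marker mean. Depth, 9.36 to 56.3 M counts, limits mainly Tpm4 and Add3, with as few as 18 and 16 counts. Exon lengths are from GENCODE on a later build than mm9 and served for levels per kilobase only. All 10 genes are named in every main comparison, and other lists give at most 2 genes a direction, by smallest adjusted p. The genes, lists and tests were chosen with earlier results of these data known. One marker gene is not reported here.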

Additional observations from a re-analysis of the deposited data

How the results depend on the processing

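For D45/KO against WT/KO, 1 junction gene was called, with 0.172% of all genes. The number was 3 with DESeq2 (1.39% of all genes), 5 with limma-voom and quality weights (17.9%) and 5 with the B marker covariate (2.95%). It was 8 with the 2-level B term (5.8%), 2 with the replicate block (0.955%) and 0 with only the genotypes compared (0.0497%). In B-rich libraries alone it was 6 (7.55%), and it was 0 to 1 when a library was left out (0.0669 to 0.272%). For D45/KO against WT/WT, 1 was called, with 0.619% of all genes. The number was 2 with RLE size factors (0.94% of all genes), 2 with DESeq2 (3.04%) and 2 with quality weights (5.35%). It was 4 with the B covariate (4.16%), 4 with the 2-level B term (4.1%) and 2 with mouse identifier as a 2-level term (1.03%). The replicate block called 2 (1.56%), only the genotypes compared gave 0 (0.511%), and leaving out a library gave 0 to 1 (0.133 to 0.842%). The second gene there was Epb4.9. Against D45/D45 none was called, with 0.00746% of all genes. There 1 (Epb4.9) was called with quality weights (5.24% of all genes), with the B covariate (0.134%) and with the replicate block (0.0895%). For WT/KO against WT/WT none was called, with 0% of all genes, and 4 with quality weights, with 8.65% of all genes. The cause was not tested. Same-numbered libraries had correlations of -0.46 to 0.77 (median 0.22), and other pairs between genotypes -0.73 to 0.79 (median -0.11). These overlapping ranges do not settle whether the numbers pair libraries. Replicate 1 was B-rich in every genotype, and every library with a mouse identifier under 200 was B-rich. The replicate block, the identifier term and the B terms are thus not independent of each other. RLE scaling moved the median of all genes by -0.13 against WT/KO and -0.06 against WT/WT.

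Fold changes against WT/KO turned to -0.29 for Epb4.1, -0.08 for Tmod1 and -0.2 for Tpm1 in B-poor libraries. Add1 turned to 0.5 with quality weights, 0.19 with the 2-level B term, 0.02 with the identifier, 0.21 with the block and 0.58 in B-rich libraries. Against WT/WT, in the order B covariate, 2-level B term, identifier and B-rich libraries, Epb4.1 turned to 0.51, 1, 0.46 and 2.31 and Tmod1 to 0.31, 0.73, 0.26 and 0.98. Tpm1 turned to 0.18 with the 2-level term and 0.96 in B-rich libraries, and Add1 to 0.06 in B-rich libraries. Tpm4 turned to 0.52 and Add3 to 0.02 with the identifier, and to 0.97 and 0.53 with the block. Leaving out a library, Tpm4 ran from -1.58 to 1.43, Add3 from -1.63 to 0.73 (both highest without WT/WT replicate 1) and Epb4.1 from -0.89 to 0.59 (without WT/WT replicate 3).

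Leaving out a library, the log2 Tmod3 to Tmod1 difference ran from 0.64 to 1.64 (D45/KO against WT/KO), 1.51 to 2.85 (against WT/WT), 0.65 to 1.37 (against D45/D45), 0.49 to 1.83 (D45/D45 against WT/WT), -0.28 to 1.11 (WT/D45 against WT/WT, negative also at -0.23) and 0.26 to 1.59 (WT/KO against WT/WT, and -0.29 in B-poor libraries). The Tpm3 share difference ran from -19.2 to -12.4 points (D45/KO against WT/KO, and -17.7 without D45/KO replicate 2), -8.52 to 7.36 (against WT/WT), -8.47 to 3.36 (against D45/D45), -4.93 to 11.8 (D45/D45 against WT/WT, also -4.11), 0.0725 to 15.9 (WT/D45 against WT/WT) and 6.88 to 22.8 (WT/KO against WT/WT). In B-rich libraries it was -18.9 against WT/WT and -19.4 against D45/D45, and per kilobase it was -6.92 against WT/KO and 0.203 against WT/WT.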
